A study of Mus musculus with 8 samples.

Results

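Described here are 9 genes of the first epithelium of the mouse embryo: the transcription factor genes Tead4, Tfap2c and Gata3, the keratin genes Krt8 and Krt18, the cell adhesion genes Cdh1 and F11r, the membrane linker gene Ezr and the sodium pump gene Atp1b1. They were taken by name: each transcript entry whose RefSeq accession belongs to one of these symbols was kept and the entries of a gene were summed, which found all 9 among 24921 genes. Their RNA was read in 8 Smart-seq libraries from C57BL/6 mouse embryos, a method that copies and amplifies cDNA from very little RNA. The groups were CX45, CX22, 8C and 2C, with 2 libraries each, and the last pair was taken to be embryos at the 8-cell and 2-cell stages. What CX45 and CX22 stand for is not spelled out in the labels, which name no control and give neither a treatment, a time nor the number of embryos in a library. All 4 groups share the strain and the tissue label (embryo), and the title of the series is about transcription by RNA polymerase I and the architecture of chromatin. Each group was therefore set against every other, in 6 comparisons.

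The trophectoderm is the outer layer of the blastocyst and the first epithelium to form in the mammalian embryo. In the mouse, TEAD4 binds DNA with the coactivators YAP1 and WWTR1, which the Hippo kinases keep out of the nucleus in inner cells, and TEAD4, TFAP2C and GATA3 act on Cdx2 and other trophectoderm genes. Around the 8-cell stage the blastomeres compact through E-cadherin, ezrin gathers at their free apical face, tight junctions are then built between outer cells, and the sodium pump later drives fluid into the cavity.

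Both Tfap2c transcripts in the table are shown first, because the libraries differed in which of them was listed. The sequences below are the coding part of the exon that holds each start codon, 5′ to 3′, from the GENCODE M21 transcripts (GRCm38, plus strand), with the start codon in capitals. The entry NM_001159696 (chr2:172551057-172551221, 165 bases, 488 codons in the whole reading frame) was the only one listed in the CX45, 8C and 2C libraries, and NM_009335 (chr2:172549835-172549882, 48 bases, 449 codons) was the only one listed in CX22.
NM_001159696: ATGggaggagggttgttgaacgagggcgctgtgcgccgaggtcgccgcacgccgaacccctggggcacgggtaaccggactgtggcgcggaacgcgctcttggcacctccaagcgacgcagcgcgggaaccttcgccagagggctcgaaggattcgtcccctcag
NM_009335: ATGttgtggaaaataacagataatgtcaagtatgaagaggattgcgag

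The promoters of F11r and Ezr are shown because F11r was higher and Ezr lower in 8C than in 2C. Both are RefSeq windows (GRCm38.p6) from 250 bases before to 50 bases after the gene's start, written in the gene's own direction, and such a window was found for 6 of the 9 members. Capitals mark the AP-2 motif, searched as GCCNNNGGC, which reads the same on both strands and which 16.7% of 32544 promoter windows hold. F11r (chr1:171437311-171437610, plus strand) has 1 match and Ezr (chr17:6782731-6783030, minus strand) has 0.
F11r: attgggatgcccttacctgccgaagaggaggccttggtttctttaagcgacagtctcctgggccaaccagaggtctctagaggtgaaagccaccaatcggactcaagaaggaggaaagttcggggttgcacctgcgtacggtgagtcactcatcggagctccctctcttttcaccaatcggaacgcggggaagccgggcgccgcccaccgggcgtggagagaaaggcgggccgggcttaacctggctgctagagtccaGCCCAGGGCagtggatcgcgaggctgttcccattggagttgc
Ezr: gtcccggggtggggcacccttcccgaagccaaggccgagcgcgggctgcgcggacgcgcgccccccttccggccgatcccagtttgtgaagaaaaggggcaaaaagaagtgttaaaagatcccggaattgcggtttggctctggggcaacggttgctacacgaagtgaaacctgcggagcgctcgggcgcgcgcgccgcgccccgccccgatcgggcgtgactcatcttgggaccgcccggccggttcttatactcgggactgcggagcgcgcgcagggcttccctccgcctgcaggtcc
Of the other members with a window, Gata3 has 3 matches, Krt18 has 1 and Krt8 and Atp1b1 have 0. The TEAD motif, searched as CATTCC or GGAATG, stood in none of the 6 windows, against 14.6% of all windows. The GATA motif, searched as AGATAA or TTATCT, stood in the Krt8 window alone, against 11.2% of all windows. A match is a run of letters and not a shown binding site, and no match says only that these letters are not in this window.

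Levels are FPKM, which counts fragments per transcript length and per sequenced library and so allows genes to be set side by side. Steps between low values implied 9620000 to 20170000 fragments per library. The 2C libraries differed by little more than sampling noise (median chi-square 1.18 times that of chance, against 48.6 in CX45, 125.6 in CX22 and 30.3 in 8C) and were counted as 1 sample, so 2C values carry no SD and the other groups are mean ± SD of 2 libraries. An alternative that counts them as 2 samples treats this small difference as spread between replicates. A call gained under it is therefore not added support. A gene was called at a limma adjusted p under 0.05 (Benjamini-Hochberg over 11873 genes) and an absolute log2 difference of at least 1 on the log2(FPKM + 1) scale, which understates the change of low genes. Only called genes are said to have risen or fallen. The labels do not say that the libraries of a group came from separate embryos, so the p-values measure the spread between libraries, which may be technical. A listed 0 need not mean that no RNA was there, since the table holds no counts. The median log2 difference over all genes was 0.31 in CX45 against 8C, 0.47 in CX45 against CX22 and 0.33 in CX45 against 2C, and between -0.07 and -0.04 in the other comparisons.

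Markers listed for the cells a sample could hold gave these sums. Early embryo and oocyte markers, 8 of 8 reaching 1 FPKM, summed to 22090 to 27890 FPKM in CX45, 14840 to 21250 in CX22, 20050 to 26080 in 8C and 21620 to 21740 in 2C, most of it Dppa3. Of the other 7, Bmp15, Gdf9, Nlrp5 and Ooep had lower means in CX45 and 8C than in CX22 and 2C, with Bmp15 the widest at 5.71 and 20.2 FPKM in CX45, 522.98 and 690.998 in CX22, 0.808 and 2.72 in 8C, and 749.8 and 724.3 in 2C. Dppa2 and Dppa4 went the other way, and Dppa4 had 615.01 and 716.6 FPKM in CX45, 46.3 and 27.3 in CX22, 596.2 and 721.6 in 8C, and 47.8 and 48.2 in 2C. Zp3 had its highest mean in CX45, overlapping CX22, with 54.3 and 29.5 FPKM in CX45, 41.3 and 14.6 in CX22, 13.3 and 13.4 in 8C, and 14.7 and 15.5 in 2C. Markers of cumulus and granulosa cells summed to at most 6.33 FPKM (4 of 9 at 0 throughout), of fibroblasts to at most 8.6, and of oviduct epithelium, another epithelium near the embryo, to at most 9.82 (Foxj1 at 0 throughout). The fibroblast maximum was 2C replicate 2, where Col1a1, Col1a2, Col3a1, Dcn and Lum had 0.252 to 1.51 FPKM. In 2C replicate 1 these genes were at 0 and the list summed to 3.87. Sperm markers summed to 0 to 4.91 FPKM in CX45, 32.9 to 42.9 in CX22, 0 in 8C and 18.7 to 19.6 in 2C. The CX22 libraries owed this to different genes, with Tnp1 at 42.2 and 0 FPKM and Prm2 at 0.655 and 28.7. In 2C most of it was Prm2, at 17.1 and 16.7 FPKM, and Tnp2 and Smcp were at 0 throughout. Blood and immune markers summed to 320.7 to 379.8 FPKM in CX45, 33.8 to 84.8 in CX22, 22.8 to 34.5 in 8C and 110.5 to 110.7 in 2C, most of it Hba-a1 except in 8C replicate 1. The other globin gene of the list, Hbb-b1, did not follow Hba-a1. It had 0.144 and 0.375 FPKM in CX45, 0 and 0.785 in CX22, 0 and 0 in 8C, and 0 and 0 in 2C. Of the white-cell markers in that list, Ptprc stayed at or below 0.0701 FPKM and Cd52 had 18.8 and 19.6 FPKM in CX45, 0 and 0.493 in CX22, 10.8 and 2.45 in 8C, and 0 and 0.155 in 2C. Lyz2 had 9.61 and 7.45 FPKM in CX45, 10.2 and 11.8 in CX22, 0 and 0 in 8C, and 0 and 1.91 in 2C. Cd74 had 6.01 and 5.28 FPKM in CX45, 0.0836 and 0.405 in CX22, 1.69 and 3.26 in 8C, and 4.35 and 5.03 in 2C. Cd52 was thus highest in CX45, and Lyz2 was high in CX45 and CX22. The part of these RNAs in the results was not tested.

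Tead4, Tfap2c and F11r were high in CX45 and 8C and low in CX22. Krt8 was highest in 8C, Ezr in 2C and Atp1b1 in CX22, Cdh1 lay close to 11 FPKM in 3 of the 4 groups, and Gata3 and Krt18 were low and scattered. In bulk embryo RNA, fewer cells that express a gene and less RNA per cell cannot be told apart.

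**Figure D1:**
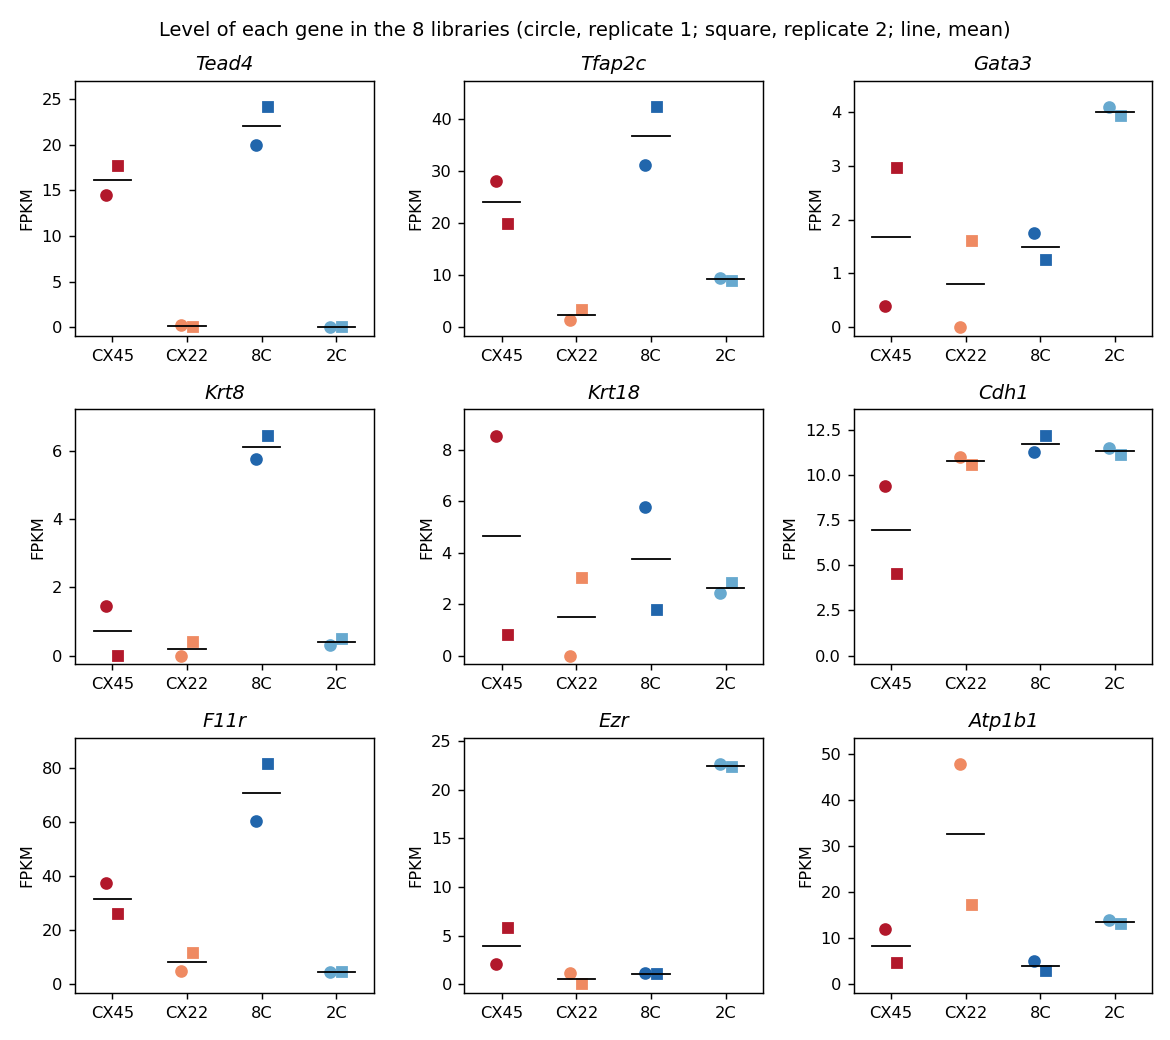
FPKM of each of the 9 genes (y axes, each to its own scale) in the 8 libraries, grouped on the x axis as CX45, CX22, 8C and 2C. Circles are replicate 1, squares replicate 2 and lines the group mean; Tead4 lies between 14.5 and 24.1 FPKM in CX45 and 8C and at or below 0.277 in CX22 and 2C.

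Among the regulators, Tead4 (chromosome 6, 128177161 to 128250831 in mm9, counted from 1) separated the groups most widely. It had 14.5 and 17.7 FPKM in CX45, 0.277 and 0 in CX22, 20.04 and 24.1 in 8C, and 0 and 0 in 2C. CX45 and 8C stood far above CX22 and 2C, where 3 of 4 libraries are listed at 0, and the value of CX22 replicate 1 came to about 5.10 fragments. Tead4 rose in CX45 against CX22 (log2 3.91 ± 0.38, SE, limma adjusted p = 0.00523) and fell in CX22 against 8C (-4.35 ± 0.38, adjusted p = 0.00248). It also rose against 2C, in 8C (adjusted p = 0.00412) and in CX45 (adjusted p = 0.00777), with no fold given because 2C is listed at 0. In the order of levels, 8C, CX45, CX22 and 2C, the call lay between CX45 and CX22, and the outer pairs of neighbours were not called, neither CX45 against 8C (-0.43 ± 0.38, adjusted p = 0.623) nor CX22 against 2C (adjusted p = 0.958). Its 4 calls held under each of the 16 alternatives, leaving out any single library included, with adjusted p of at most 0.0437.

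Tfap2c (chromosome 2, 172375093 to 172384121 over both entries) encodes the AP-2 gamma transcription factor. It had 28.1 and 19.9 FPKM in CX45, 1.30 and 3.32 in CX22, 31.1 and 42.2 in 8C, and 9.46 and 8.91 in 2C. No groups overlapped, and CX22 was the lowest. Tfap2c rose in CX45 against CX22 (log2 2.97 ± 0.44, limma adjusted p = 0.0103) and fell in CX22 against 8C (-3.56 ± 0.44, adjusted p = 0.00502). The first call was lost without CX45 replicate 1 (adjusted p = 0.0588, 0.00175 to 0.0588 over all alternatives) and the second without 8C replicate 2 (0.0523, 0.000648 to 0.0523). In 8C against 2C it was not called (1.87 ± 0.54, adjusted p = 0.0528) and passed under 6 alternatives (0.0074 to 0.205 over all), among them leaving out CX22 replicate 1 (0.0299) or 2 (0.0303). CX45 and 8C (-0.60 ± 0.44, adjusted p = 0.561), CX45 and 2C (1.27 ± 0.54, adjusted p = 0.14) and CX22 and 2C (-1.69 ± 0.54, adjusted p = 0.226) were not called either. With the 2C libraries as 2 samples, CX45 against 2C (0.0335, 0.0335 to 0.332 over all alternatives) and CX22 against 2C (0.0374, 0.0241 to 0.453) passed.

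Gata3 (chromosome 2, 9778705 to 9800227), a GATA factor of the trophectoderm, had 0.396 and 2.97 FPKM in CX45, 0 and 1.60 in CX22, 1.76 and 1.24 in 8C, and 4.09 and 3.93 in 2C. The 2C libraries were the highest and the other 3 groups overlapped. None of its 6 comparisons was called by limma (adjusted p 0.388 to 0.999), and the widest, CX22 against 2C, gave -1.64 ± 0.89 on the log2 scale (adjusted p = 0.501).

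The transcript entries behind these sums differed between libraries. For Tfap2c, 100% of the summed FPKM was on NM_001159696 in the CX45, 8C and 2C libraries and 0% in both CX22 libraries, where all of it was on NM_009335. The CX22 values of that entry came to about 35.4 and 112.8 fragments, against 696.4 to 2361 fragments on the other entry in CX45 and 8C. The split of Tead4 did not follow the groups: NM_011567 took 37.6% in CX45 replicate 2 and 22.6% in 8C replicate 2, and 0% in the other replicate of each. Gata3 was on NM_001355110 in 2C (100% in both libraries) and mostly in 8C (88.9% and 85.5%), and that entry was at 0 in CX45 and CX22, which used 3 others. In 1 alternative the single entry of highest mean over all libraries took the place of the sum, for Gata3 NM_001355110. That entry fell in 8C against 2C (limma adjusted p = 0.0213, 0.0213 to 0.641 over all alternatives), CX22 against 2C (0.00915, 0.00915 to 0.725), CX22 against 8C (0.0092, 0.0092 to 0.979) and CX45 against 2C (0.00536, 0.00536 to 0.802). For Tfap2c the entry was NM_001159696, which fell in CX22 against 2C (0.0241, 0.0241 to 0.453). Each entry was chosen from these same libraries, and both are listed at 0 in CX22. These calls thus describe the entry chosen and not the gene, whose sum was not called in these comparisons. The entries of a gene overlap and Cufflinks divides fragments between them, so an entry at 0 is an estimate.

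**Figure D2:**
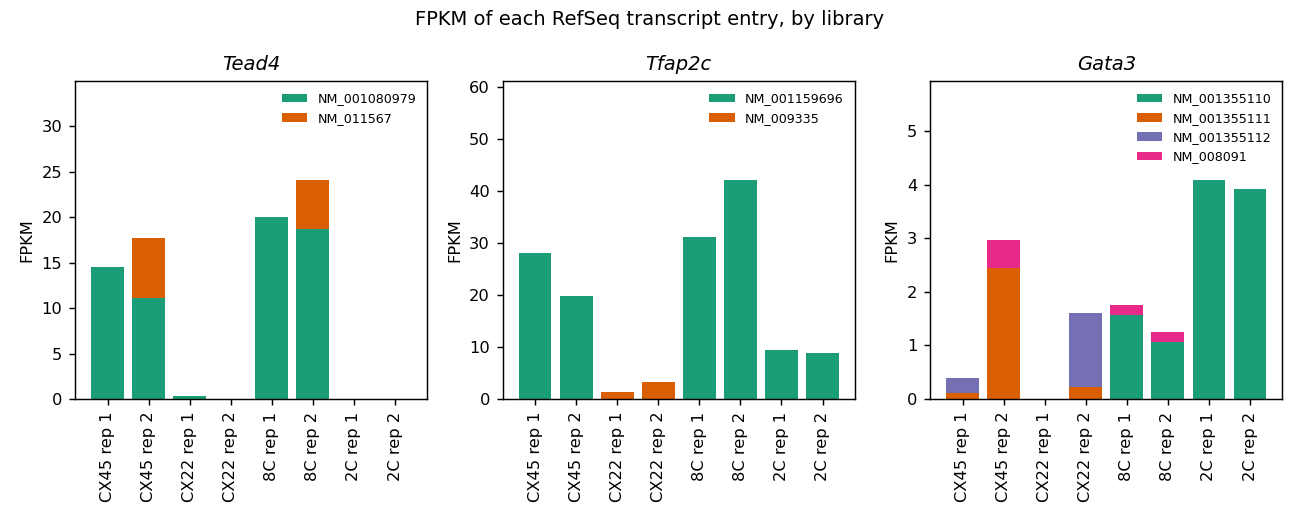
Stacked FPKM (y axis) of each RefSeq transcript entry of Tead4, Tfap2c and Gata3 in the 8 libraries (x axis, CX45 at the left and 2C at the right). Tfap2c is 1 colour in CX45, 8C and 2C and the other colour in both CX22 libraries, at 1.30 and 3.32 FPKM.

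Krt8 and Krt18 encode partner keratins that pair into intermediate filaments, and Krt8 alone of them was called in any comparison. Krt8 (chromosome 15, 101827142 to 101834773) had 1.46 and 0 FPKM in CX45, 0 and 0.412 in CX22, 5.77 and 6.45 in 8C, and 0.323 and 0.474 in 2C. The 8C libraries stood above all others without overlap, and the remaining 3 groups overlapped. Krt8 rose in 8C against 2C (log2 2.34 ± 0.63, limma adjusted p = 0.0441) and fell in CX22 against 8C (-2.58 ± 0.52, adjusted p = 0.0173). CX45 against 8C was not called (-2.18 ± 0.52, adjusted p = 0.125) and passed with the 2C libraries as 2 samples (0.038, 0.038 to 0.472 over all alternatives). The 8C values rest on about 200.7 and 254.5 fragments and the 2C values on 7.52 and 11.7. The rise was lost under 8 of 16 alternatives, among them a pseudocount of 0.1 (adjusted p = 0.216), the replicate block (0.075), and leaving out 8C replicate 1 (0.136), 8C replicate 2 (0.152), CX22 replicate 1 (0.0663) or CX22 replicate 2 (0.0656), with 0.00558 to 0.216 over all. The fall in CX22 against 8C was lost with a pseudocount of 0.1 (0.077) and without 8C replicate 1 (0.0866), 8C replicate 2 (0.0967) or CX22 replicate 1 (0.0712), over a range of 0.00422 to 0.0967.

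Krt18 (chromosome 15, 101858647 to 101862457) lies near Krt8. It had 8.55 and 0.788 FPKM in CX45, 0 and 3.01 in CX22, 5.80 and 1.76 in 8C, and 2.44 and 2.84 in 2C. Every pair of groups overlapped, and the CX45 libraries lay farther apart than any group means. No comparison was called (limma adjusted p 0.483 to 1), and its SE of 1.16 to 1.42 on the log2 scale was the largest of the 9 genes.

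Among the adhesion genes, F11r differed between groups and Cdh1 was not called in any comparison. F11r (chromosome 1, 173367692 to 173394724) encodes JAM-A, a membrane protein of tight junctions. It had 37.4 and 25.96 FPKM in CX45, 4.94 and 11.7 in CX22, 60.4 and 81.5 in 8C, and 4.32 and 4.33 in 2C. No groups overlapped, and the 8C values were the highest of any of the 9 genes in any library. F11r rose in 8C against 2C (log2 3.74 ± 0.58, limma adjusted p = 0.0108), in CX45 against 2C (2.59 ± 0.58, adjusted p = 0.0329) and in CX45 against CX22 (1.89 ± 0.47, adjusted p = 0.0361), and fell in CX22 against 8C (-3.04 ± 0.47, adjusted p = 0.00888). CX45 averaged 31.7 ± 8.08 FPKM against 70.9 ± 14.9 in 8C (log2 -1.15 ± 0.47, adjusted p = 0.29), and CX22 averaged 8.31 ± 4.77 FPKM against 4.33 in 2C (adjusted p = 0.72), neither of them called.

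The 4 calls of F11r were lost in part of the refits. Without 8C replicate 1 or 2, limma gave adjusted p = 0.0596 and 0.0724 in 8C against 2C (0.000644 to 0.0724 over all alternatives), and 0.0575 and 0.074 in CX22 against 8C (0.0016 to 0.074). In CX45 against 2C the call was lost without 8C replicate 1 (0.0878) or 2 (0.0886), without CX45 replicate 1 (0.12) or 2 (0.0848), with no filter (0.0526) and with the replicate block (0.0546), over a range of 0.00329 to 0.12. In CX45 against CX22 it was lost without 8C replicate 1 (0.0899) or 2 (0.0905), CX22 replicate 1 (0.066), CX45 replicate 1 (0.159) or 2 (0.1), with no filter (0.0606) and with the replicate block (0.0565), over a range of 0.0117 to 0.159.

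Cdh1 (chromosome 8, 109127250 to 109194147) encodes E-cadherin, which holds blastomeres together at compaction. It had 9.40 and 4.51 FPKM in CX45, 11.002 and 10.5 in CX22, 11.3 and 12.2 in 8C, and 11.5 and 11.1 in 2C. The libraries of CX22, 8C and 2C all lay between 10.5 and 12.2 FPKM, and both CX45 libraries lay below them. The difference of 8C and 2C was 0.05 ± 0.50 on the log2 scale (limma adjusted p = 0.957) and that of CX22 and 2C was -0.06 ± 0.50 (adjusted p = 1). CX45 against 8C gave -0.75 ± 0.41 (adjusted p = 0.414).

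Ezr (chromosome 17, 6942480 to 6987129) encodes ezrin, which ties the apical membrane to actin. It had 2.07 and 5.82 FPKM in CX45, 1.10 and 0.0538 in CX22, 1.09 and 0.996 in 8C, and 22.6 and 22.3 in 2C. Both 2C libraries were far above all others, CX45 was next, and CX22 and 8C overlapped. Ezr fell in 8C against 2C (log2 -3.52 ± 0.73, limma adjusted p = 0.0227). CX22 against 2C was not called (-3.98 ± 0.73, adjusted p = 0.0692) and passed with the 2C libraries as 2 samples (0.00536, 0.00536 to 0.239 over all alternatives). The value of CX22 replicate 2 came to about 2.04 fragments, against 852.7 and 891.6 in the 2C libraries. CX45 against CX22 (1.62 ± 0.60, adjusted p = 0.0969), CX45 against 2C (-2.36 ± 0.73, adjusted p = 0.0705) and CX45 against 8C (1.16 ± 0.60, adjusted p = 0.39) were not called either. With the 2C libraries as 2 samples, CX45 against CX22 passed (0.0429, 0.0429 to 0.304 over all alternatives), and so did CX45 against 2C (0.0103, 0.0103 to 0.256), which also passed with a filter at 5 FPKM (0.0447). The fall in 8C against 2C was lost without 8C replicate 1 (adjusted p = 0.105) or 8C replicate 2 (0.111) and with a pseudocount of 0.1 (0.0921), over a range of 0.00183 to 0.111.

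Atp1b1 (chromosome 1, 166367230 to 166388486) encodes the beta-1 subunit of the sodium pump. It had 12.1 and 4.64 FPKM in CX45, 47.8 and 17.3 in CX22, 5.12 and 2.76 in 8C, and 13.9 and 13.1 in 2C. The CX22 libraries were the highest and lay far apart, 2C came next, and CX45 and 8C overlapped. Atp1b1 rose in CX22 against 8C (log2 2.64 ± 0.70, limma adjusted p = 0.0383), the one member to do so. That call was lost with no filter (0.0673) and without 8C replicate 1 (0.119) or 2 (0.188), CX22 replicate 1 (0.119), and CX45 replicate 1 (0.0616) or 2 (0.0608), over a range of 0.0123 to 0.188. Not called were CX45 against CX22 (-1.80 ± 0.70, adjusted p = 0.111), 8C against 2C (-1.59 ± 0.86, adjusted p = 0.205) and CX22 against 2C (1.05 ± 0.86, adjusted p = 0.72).

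Counted by comparison, Tead4 and F11r rose and Ezr fell in 8C against 2C, and Krt8 rose there too. That is 3 of 9 risen, where 16.3% of all genes tested rose, and 1 of 9 fallen, where 20.7% fell (37.1% in either direction). The median log2 difference of the 9 was 0.25, against -0.04 over all genes. In CX45 against CX22, Tead4, Tfap2c and F11r rose and 0 fell, beside 23% and 13.5% of all genes (36.4% in either direction), with a median of 1.05 against 0.47. Over all genes that is 2729 risen and 1597 fallen, or 2009 and 2091 after quantile normalization. In CX22 against 8C, Atp1b1 rose and Tead4, Tfap2c, Krt8 and F11r fell, beside 19.9% and 21.4% (41.3% in either direction), with a median of -1.11 against -0.05. In CX45 against 2C, Tead4 and F11r rose and 0 fell, beside 16.2% and 13.6% (29.8% in either direction), with a median of 0.16 against 0.33. With so few genes these shares are descriptions.

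In the remaining pair of comparisons limma called 0 of 9 members. In CX22 against 2C, where 0.598% of all genes rose and 3.29% fell (3.89% in either direction), the unadjusted p was under 0.05 for 0 higher and 2 lower members (Tfap2c and Ezr), and the median was -0.24 against -0.07 over all genes. In CX45 against 8C, where 0.463% rose and 0.202% fell (0.665% in either direction), it was so for 0 higher and 1 lower (Krt8), and the median was -0.43 against 0.31. A missing call at SE of 0.38 to 1.42 on the log2 scale does not show that levels were equal.

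**Figure D3:**
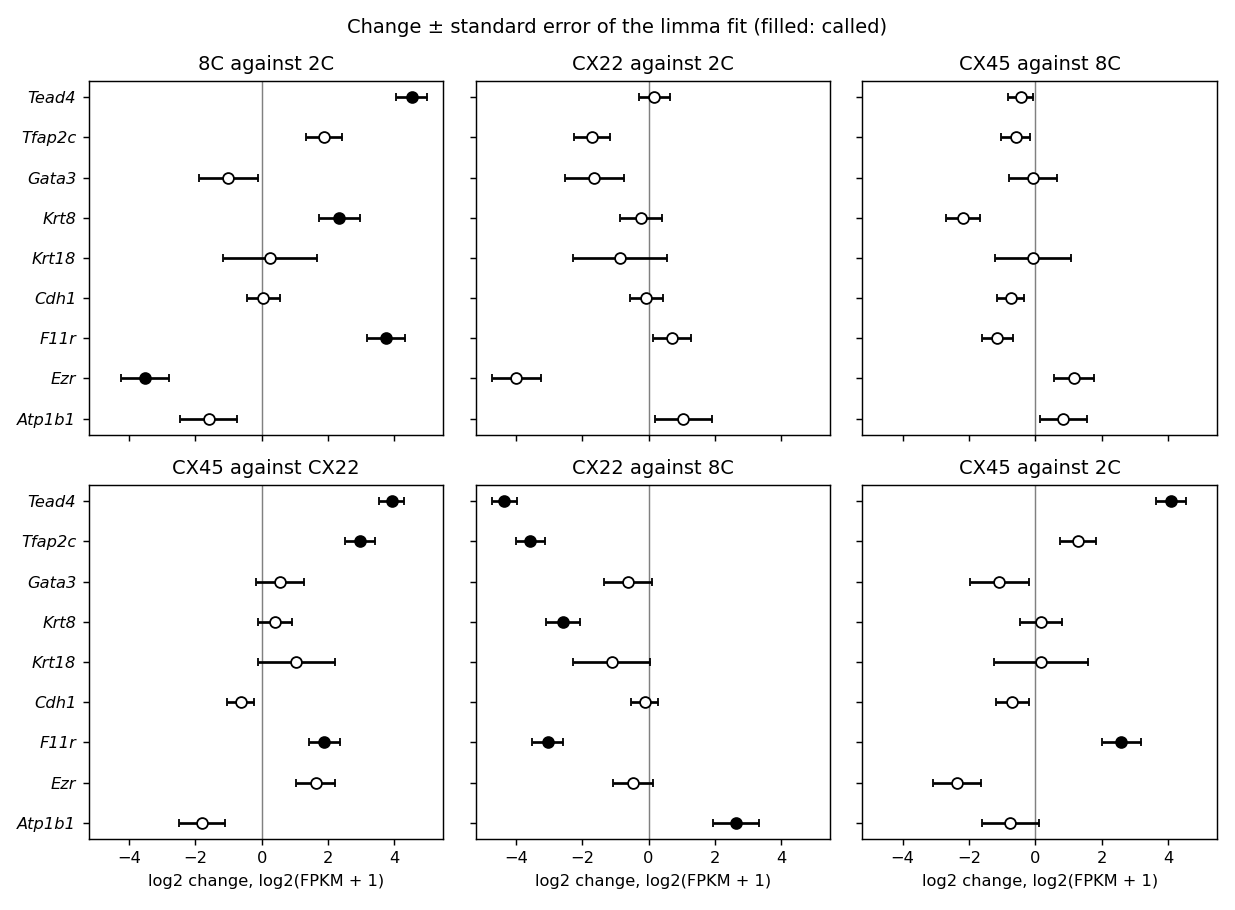
Log2 difference on the log2(FPKM + 1) scale (x axes) of each gene (rows) in the 6 comparisons, first-named group minus second. Bars are the standard error of the limma fit and filled points are called; no point is filled in CX22 against 2C or CX45 against 8C, and Tead4 against 2C depends on the added 1 because 2C is listed at 0.

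Whether CX45 minus CX22 and 8C minus 2C differed was tested as a contrast of the 2 changes. Limma called 0 of 9 members, with an unadjusted p under 0.05 for 1 higher and 0 lower, while 3.2% of all genes were called higher and 0.404% lower (3.6% in either direction). The 1 gene was Ezr, whose difference was 1.62 in CX45 minus CX22 and -3.52 in 8C minus 2C on the log2 scale. The contrast of both was 5.14 ± 0.94 (unadjusted p = 0.00343, limma adjusted p = 0.0678). It passed only with the 2C libraries as 2 samples (adjusted p = 0.0104, 0.0104 to 0.262 over all alternatives). That setting counts libraries that differ by little more than sampling noise as replicates. The contrast was -1.94 ± 0.82 for Krt8 (adjusted p = 0.28), -1.85 ± 0.75 for F11r (adjusted p = 0.266), -0.69 ± 0.64 for Cdh1 (adjusted p = 0.615), -0.61 ± 0.60 for Tead4 (adjusted p = 0.631) and -0.21 ± 1.11 for Atp1b1 (adjusted p = 0.942). It was 1.56 ± 1.14 for Gata3 (adjusted p = 0.521), 1.10 ± 0.70 for Tfap2c (adjusted p = 0.455) and 0.79 ± 1.83 for Krt18 (adjusted p = 0.854), so that 4 of the 9 contrasts were positive and 5 negative. The median contrast of the 9 was -0.21, against 0.53 over all genes.

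**Figure D4:**
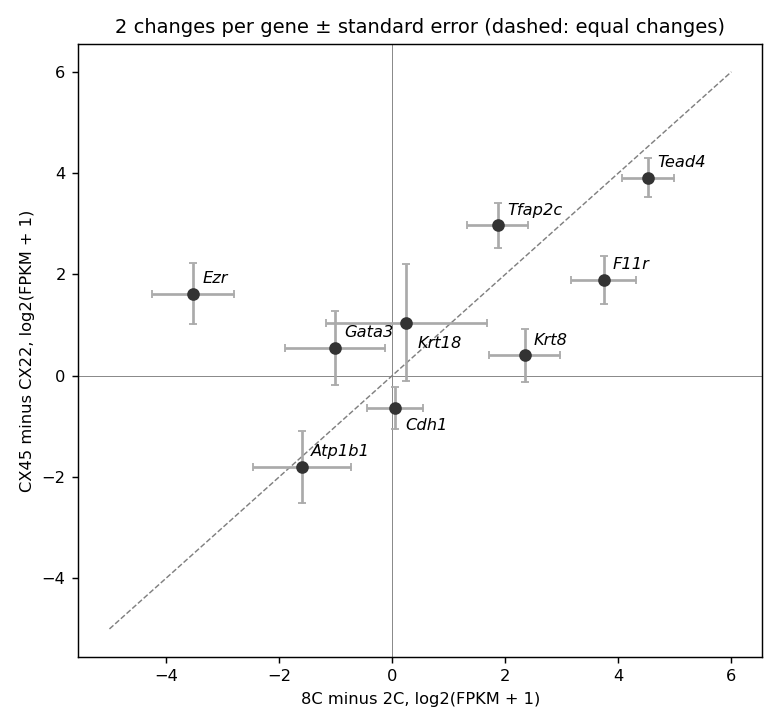
Log2 difference of CX45 and CX22 (y axis) against that of 8C and 2C (x axis) for the 9 genes, with standard errors as bars and equal changes on the dashed line. Ezr lies farthest from the line, at 1.62 and -3.52.

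Of 56 other trophectoderm and epithelial genes in the table, 44 passed the filter on low values. In 8C against 2C 11 rose and 7 fell (25% and 15.9%, beside 16.3% and 20.7% of all genes), and in CX45 against CX22 8 rose and 10 fell (18.2% and 22.7%, beside 23% and 13.5% of all genes). In CX22 against 8C 10 rose and 13 fell (22.7% and 29.5%, beside 19.9% and 21.4% of all genes), and in CX45 against 2C 6 rose and 6 fell (13.6% and 13.6%, beside 16.2% and 13.6% of all genes). In CX22 against 2C limma called 0, beside 3.89% of all genes in either direction, and in CX45 against 8C 0, beside 0.665%. By unadjusted p under 0.05 there were 3 higher and 3 lower in CX22 against 2C, and 1 higher and 4 lower in CX45 against 8C. The share of all genes at that threshold was not counted. The median log2 difference over the 44 was 0.17 in 8C against 2C and 0.32 in CX45 against CX22, beside -0.04 and 0.47 over all genes. Cdx2, Elf5 and Aqp8 were listed at 0 in all 8 libraries.

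Of 18 other transcription factor and Hippo pathway genes tested, 6 rose and 2 fell in 8C against 2C (33.3% and 11.1%, beside 16.3% and 20.7% of all genes), and 5 rose and 5 fell in CX45 against CX22 (27.8% and 27.8%, beside 23% and 13.5% of all genes). Yap1, the coactivator of TEAD4, had 12.2 and 21.8 FPKM in CX45, 71.4 and 69.1 in CX22, 10.1 and 10.4 in 8C, and 87.6 and 86.4 in 2C. It was high where Tead4 was low, and it fell in 8C against 2C (log2 -2.97 ± 0.41, limma adjusted p = 0.00799) and in CX45 against CX22 (-2.04 ± 0.33, adjusted p = 0.0125). Its paralog Wwtr1 had 11.1 and 5.62 FPKM in CX45, 2.63 and 1.29 in CX22, 11.1 and 10.2 in 8C, and 0 and 0.0167 in 2C. Wwtr1 rose in 8C against 2C (adjusted p = 0.0141), while CX45 against CX22 was not called (1.64 ± 0.50, adjusted p = 0.0602). The Hippo kinase gene Stk3 fell in 8C against 2C, with 1.13 ± 0.331 FPKM against 51.96 (adjusted p = 0.00517), and in CX45 against CX22, with 2.07 ± 1.13 against 17.6 ± 2.48 (adjusted p = 0.0126). Stk4, another Hippo kinase gene, had the opposite sign and was not called. It had 8.80 ± 1.55 FPKM in 8C against 2.44 in 2C (adjusted p = 0.343), and 6.99 ± 2.93 in CX45 against 3.83 ± 4.81 in CX22 (adjusted p = 0.374). Lats2, which encodes a kinase that phosphorylates YAP1, rose in CX45 against CX22, with 9.52 and 4.90 FPKM in CX45 and 0 and 0.274 in CX22 (adjusted p = 0.0129), and in 8C against 2C, where 2C is listed at 0 (adjusted p = 0.0176). Lats1 was not called in any comparison, with 1.68 ± 0.952 FPKM in CX45, 1.05 ± 0.399 in CX22, 1.13 ± 0.251 in 8C and 1.10 in 2C. Tead1 averaged 3.53 ± 0.195 FPKM in 8C against 22.1 ± 2.88 for Tead4.

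Other regulators did not all split between the same groups. Klf5, a factor of the early blastocyst lineages, had 25.1 and 13.5 FPKM in CX45, 2.19 and 2.30 in CX22, 43.8 and 43.3 in 8C, and 3.67 and 4.11 in 2C, and it rose in 8C against 2C (log2 3.19 ± 0.47, limma adjusted p = 0.00952) and in CX45 against CX22 (2.58 ± 0.38, adjusted p = 0.0102). Hand1, a factor of later trophoblast giant cells, had 24.4 and 19.4 FPKM in CX45, 4.52 and 0.653 in CX22, 17.3 and 15.7 in 8C, and 0 and 0 in 2C. It rose in CX45 against CX22 (2.91 ± 0.66, adjusted p = 0.0275), in 8C against 2C (4.13 ± 0.80, adjusted p = 0.0192) and in CX45 against 2C (4.51 ± 0.80, adjusted p = 0.0196). Eomes, Gata2 and Grhl1 fell in CX45 against CX22 (adjusted p = 0.0189, 0.0217 and 0.0178). Their means were at most 1.01 FPKM in CX45, against 3.95 ± 1.83, 3.998 ± 2.78 and 8.57 ± 2.95 FPKM in CX22.

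Among 12 other adherens and tight junction genes, 1 rose (Cldn4) and 1 fell (Esrp1, a splicing factor of epithelial cells) in 8C against 2C (8.33% and 8.33%, beside 16.3% and 20.7% of all genes). In CX45 against CX22 Cldn7 rose and 0 fell (8.33% and 0%, beside 23% and 13.5% of all genes). Cldn4, a claudin of tight junctions, had 1.95 and 1.13 FPKM in CX45, 0.282 and 0 in CX22, 15.4 and 36.05 in 8C, and 0 and 0.129 in 2C. It was highest in 8C, as Krt8 was, and CX45 against 8C was not called (log2 -3.30 ± 0.54, limma adjusted p = 0.0781). Ctnnb1, which encodes the beta-catenin bound by E-cadherin, was not called in any comparison, with 66.8 ± 34.8 FPKM in CX45, 32.9 ± 5.05 in CX22, 42.9 ± 13.5 in 8C and 42.7 in 2C. Among 4 polarity genes, Pard3 fell in 8C against 2C (2.22 ± 0.655 FPKM against 79.5, adjusted p = 0.00229) and in CX45 against CX22 (9.29 ± 0.0935 against 94.8 ± 14.2, adjusted p = 0.00466). Prkci, an atypical protein kinase C of the apical domain, fell in both comparisons too. Its paralog Prkcz rose in both, with 9.32 ± 0.0986 FPKM in CX45, 1.47 ± 0.469 in CX22, 7.78 ± 1.58 in 8C and 1.62 in 2C. The last of the 4, Pard6b, fell in CX45 against CX22 (adjusted p = 0.0167) and was not called in 8C against 2C (-2.28 ± 0.66, adjusted p = 0.0519). These polarity genes came to 25% risen and 50% fallen in 8C against 2C (16.3% and 20.7% of all genes). In CX45 against CX22 they came to 25% and 75% (23% and 13.5% of all genes). Of 7 other keratin and desmosome genes, 2 passed the filter (Dsp and Pkp2), and limma called 0 of them in any comparison, also 0 by unadjusted p under 0.05.

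Other genes of microvilli and of ion and water transport followed Ezr and Atp1b1 only in part. Rdx, the radixin gene of the same family as Ezr, fell in 8C against 2C (log2 -2.67 ± 0.53, limma adjusted p = 0.0205), and had 99.3 ± 33.1 FPKM in CX22 against 91.4 in 2C (not called, adjusted p = 1). Ezr stood at 1.10 and 0.0538 FPKM in the same CX22 libraries. The villin gene Vil1, of microvilli, had 15.1 and 16.6 FPKM in CX22 and 28.9 and 27.8 in 2C, and was listed at 0 in all CX45 and 8C libraries. Atp1b3, another beta subunit of the sodium pump, had 265.3 and 236.4 FPKM in CX45, 62.2 and 69.9 in CX22, 219.1 and 266.5 in 8C, and 52.3 and 52.3 in 2C. It rose in 8C against 2C (2.19 ± 0.25, adjusted p = 0.00538) and in CX45 against CX22 (1.91 ± 0.21, adjusted p = 0.00586), and its FPKM was above that of Atp1b1 in every library. Atp1b2, a further beta subunit gene, had its highest mean in CX22, as Atp1b1 did, and was not called in any comparison. It had 0.784 ± 1.02 FPKM in CX45, 2.43 ± 0.343 in CX22, 0.811 ± 0.139 in 8C and 0 in 2C. The water channel genes Aqp3 and Aqp9 rose in 8C against 2C (adjusted p = 0.0421 and 0.0289).

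**Figure D5:**
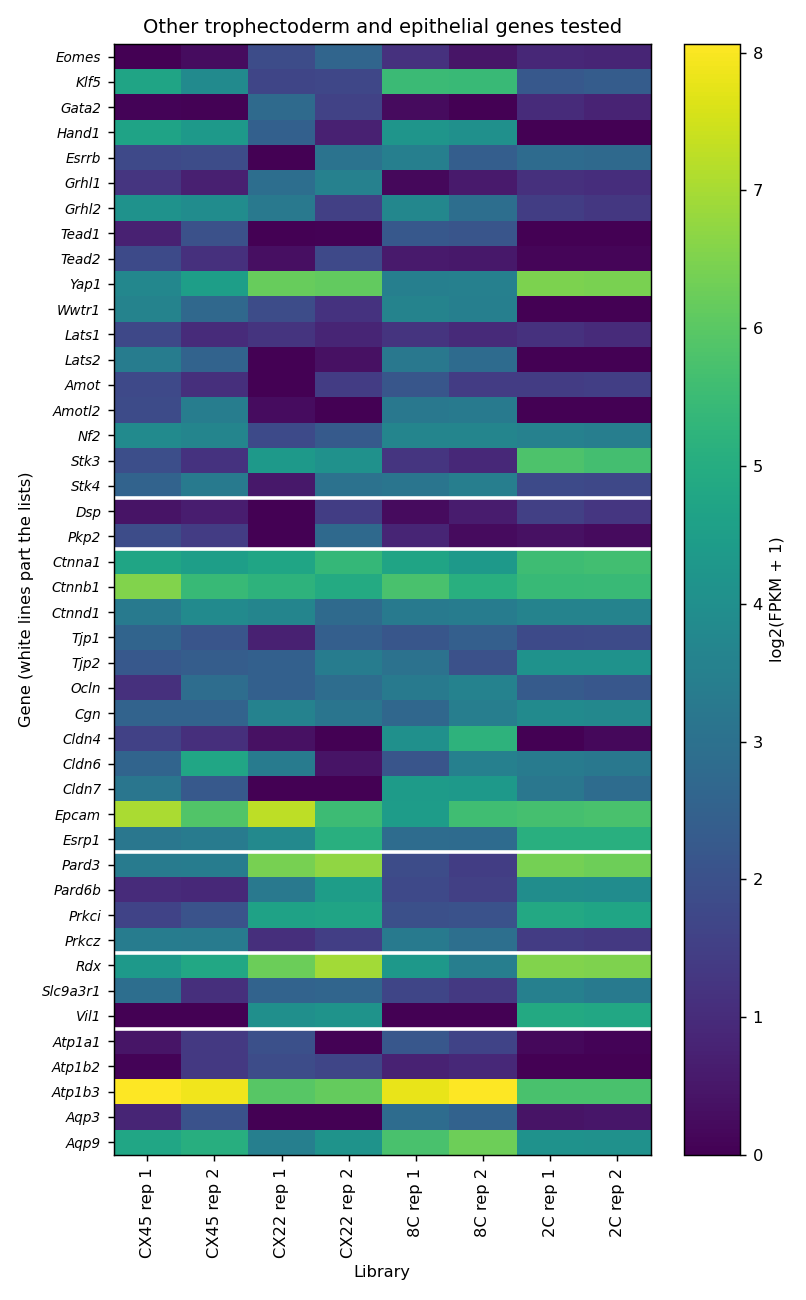
Log2(FPKM + 1) (colour) of the 44 other trophectoderm and epithelial genes that passed the filter (rows, white lines between the lists) in the 8 libraries (columns, CX45 at the left and 2C at the right). Klf5 and Atp1b3 are higher in CX45 and 8C, and Yap1, Pard3 and Rdx in CX22 and 2C.

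Genes with the pattern most like each member were found by Pearson correlation of log2(FPKM + 1) over the 7 samples, which share libraries and group means, as a description. For Tead4 these were Dgkeos, Psmb4 and Emc3 (r = 0.998 each), of which Psmb4, a proteasome subunit gene, averaged 368.5 FPKM in CX45, 21.5 in CX22, 537.4 in 8C and 20.02 in 2C. For Tfap2c they were Becn2, Pcmt1 and Nup85 (r = 0.991 to 0.992), and for F11r Hpdl, Ckmt1 and Psmd3 (r = 0.991 to 0.994). For Krt8 they were Hes1, Psmc3 and Tmem267 (r = 0.94 to 0.953), for Ezr Coasy, Spaca5 and Myl7 (r = 0.948 to 0.961), and for Atp1b1 Baz2b, Pnn and Eif1b (r = 0.966 to 0.979). For Gata3 they were Rfc2, Flot1 and Msra (r = 0.915 to 0.959), for Cdh1 Zfp534, Hcfc1r1 and Ywhag (r = 0.833 to 0.959), and for Krt18 Dppa3, Clptm1l and Tceal8 (r = 0.873 to 0.917). Among the members themselves the closest pair was Tead4 and F11r (r = 0.926) and the most opposed was Tfap2c and Atp1b1 (r = -0.901).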

How the data were processed

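RNA of mouse embryos was reverse transcribed, amplified with KAPA HiFi polymerase and made into Nextera XT libraries, per the labels' protocols. The submitters' processing notes name HISAT2 (listed as 4.8.2), Cufflinks 2.2.1 and the build mm9. Alignment and annotation settings: not given in the sources used here. FPKM computed by the authors fill the deposited table of 41876 entries. Of these, 41685 matched a symbol by RefSeq accession (GRCm38.p6 table), and the rest kept their accession as name. Entries were summed per gene. End minus start equalled the reference gene length in 10221 genes with 1 entry and was 1 base short in 488, so listed starts count from 0 and were raised by 1. Depths were read from the steps of low values and speak of counting error only. Genes at 1 FPKM or more in 2 of 8 libraries (11873, all 9 members among them) entered limma 3.58.1 in R 4.3.3, two-sided, with a trend on mean expression, 7 samples and 3 residual degrees of freedom. The spread of 2C, with 1 sample, was taken from the other groups. The code was tested on simulated data, with 100 genes changed by log2 1.5 and 100 by log2 3 in each comparison. It recovered 0 to 3% of the smaller changes and 0 to 36% of the larger ones, so most were missed. Fewer genes were changed there than most comparisons called, and a gene not called may still differ. The members, gene lists and rules were chosen with earlier results of these data known. Genes named were the 9 members, genes of the 56 others with their counts, markers, and per member the 3 most similar genes with at least 10 FPKM in their highest group; the markers given by name were chosen after their values were seen. Alternatives were a pseudocount of 0.1, no filter, a filter at 5 FPKM, quantile normalization, the highest entry per gene, no trend, 2C as 2 samples, a replicate block and each library left out. Single genes were followed under them for the 9 members only, so calls of the 56 others carry no such check.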

Additional observations from a re-analysis of the deposited data

How the results depend on the processing

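No called member changed direction under any of the 16 alternatives. Of 1001 values of single members under alternatives, 941 kept their side of the threshold, 40 lost a call and 20 gained one. Leaving out 1 library gave 1 to 4 members called in 8C against 2C, 1 to 3 in CX45 against CX22, 1 to 5 in CX22 against 8C, 1 to 2 in CX45 against 2C, and 0 in CX22 against 2C, CX45 against 8C and the contrast of changes. Over all genes it gave 1417 to 5622 in 8C against 2C, 223 to 1113 in CX22 against 2C, 0 to 79 in CX45 against 8C, 2451 to 4608 in CX45 against CX22, 1871 to 5175 in CX22 against 8C and 1502 to 4928 in CX45 against 2C. Counting the 2C libraries as 2 samples puts their small difference into the spread that all groups share, so calls gained under it add no support. With the 2C libraries as 2 samples, the members called were 2 in CX22 against 2C (0 in the fit reported), 1 in CX45 against 8C (0), 4 in CX45 against 2C (2) and 1 in the contrast of changes (0). The genes called were then 6697 in 8C against 2C (4400), 1616 in CX22 against 2C (462), 1037 in CX45 against 8C (79) and 6109 in CX45 against 2C (3536). A pseudocount of 0.1 left 2 members in 8C against 2C (4) and gave 184 genes in CX45 against 8C. No filter left 1 member in CX45 against 2C and 0 genes in CX45 against 8C. The highest entry per gene gave 2 members in CX22 against 2C, Gata3 and Tfap2c, each through an entry listed at 0 in CX22. In CX22 against 2C the genes called were 128 with a filter at 5 FPKM, under which Gata3 gave no value, 261 after quantile normalization and 60 without the trend. In CX45 against 8C they were 0 after quantile normalization and 2 without the trend. The labels do not say whether the replicate numbers pair the libraries. Differences between replicates 1 and 2 correlated at -0.0009 to 0.105 between groups, and a low correlation does not show that the libraries were unpaired. With the replicate block 1 member was called in CX45 against 2C, 131 genes in CX22 against 2C and 0 in CX45 against 8C, and Atp1b1 fell in CX45 against CX22 (limma adjusted p = 0.0362, 0.0362 to 0.376 over all alternatives). The cause was not tested. Depth limits the lowest values: 3 fragments on 2 kb come to 0.0744 to 0.156 FPKM, counting error only.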
